A study of Mus musculus with 24 samples.

Results

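Costimulatory and SLAM receptors are described here in mouse CD4+ T cells over the first day of activation. The 10 genes, *Cd28*, *Icos*, *Cd226*, *Cd84*, *Slamf1*, *Slamf6*, *Cd2*, *Cd5*, *Cd6* and *Cd69*, were chosen by name as surface receptors that tune T cell activation, and they are 10 of the 22009 genes in the deposited table. All 10 were present in the table and all 10 passed the filter on low values. CD4+ cells came from the spleens of adult wildtype C57BL/6 mice, obtained by removing other cells with magnetic beads, and the study describes the cells of the time course as pooled from 6 mice. They were sequenced at rest in 2 libraries and after 4, 8, 12, 16, 20 and 24 h in culture on plate-bound anti-CD3 with soluble anti-CD28. Th0 cultures had nothing further, Th1 cultures also had anti-IL-4 and IL-12, and Th2 cultures also had IL-4 with antibodies to IL-12 and IFN-γ, with 1 library for each condition and time point, 18 in all. A further 4 libraries came from wildtype C57BL/6 cells stimulated for 16 h and then given actinomycin, which stops transcription, for 0, 1, 2 or 4 h. The labels do not say in which of the 3 conditions those cells were stimulated.

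A T cell that meets antigen also reads signals from receptors beside its antigen receptor. CD28 and its relative ICOS bind B7 family ligands and add a costimulatory signal, CD226 competes with inhibitory relatives for ligands of the nectin family, and the SLAM receptors mostly bind copies of themselves on neighbouring cells and signal through the adapter SAP. CD2 binds CD48 in the mouse and strengthens adhesion, CD5 and CD6 are related scavenger receptors that dampen antigen receptor signalling, and CD69 appears early after activation and holds cells in tissue by pulling the receptor S1PR1 from the surface.

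Values are RPKM, reads scaled to transcript length and to the mapped reads of the library, so they are relative to the library's other RNA. Mapped reads numbered 17.51 M in the smallest library, 24.83 M at the median and 33.02 M in the largest. Whole reads could be recovered from the table for 3 of the 10 genes, and they ran from 1236 to 22089 for *Cd69*, from 5447 to 25478 for *Cd5* and from 1152 to 3262 for *Slamf6*. Each count rests on the shortest gene length that gave whole reads in all 24 libraries, since 12, 9 and 8 lengths did so for *Cd69*, *Cd5* and *Slamf6*, and a longer one would mean more reads and a narrower interval. Intervals given for these 3 genes cover counting error only. The 2 resting libraries differed by a median of 0.05 on the log2 scale over the 10 receptors, and by 0.09 over all 10897 genes tested. The T cell genes *Cd3d*, *Cd3e*, *Cd3g*, *Cd4*, *Lck* and *Cd247* were present in every library, with a summed level of 1845 and 1873 RPKM at rest and 1151 to 1374 RPKM in the 18 cultures. The table has no entry for *Trac*.

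Most of the receptors were abundant transcripts. *Cd6* exceeded a median of 98.9% of all genes over the 24 libraries, *Cd5* 98.8%, *Cd69* 98.3% and *Cd2* 97.65%. These shares are of all 22009 genes, those at 0 included, and 14563 to 15706 genes were above 0 in a library. The lowest was *Cd226*, with a median of 78.4%. The time point comparisons used limma on log2 values, with the 3 cultures of a time point as its libraries, so the spread between conditions is part of the error. The study describes these cells as pooled from several mice, so the cultures are not biological replicates. The p-values of the time comparisons therefore do not measure the spread between mice. The threshold was a limma adjusted p under 0.05 together with a 2-fold or larger difference in either direction. At 4 h against rest 4 of the 10 receptors were past it, where 10.6% of all genes were, at 24 h against rest 3 of 10, where 30.1% of all genes were, and at 24 h against 4 h 3 of 10, where 26.2% of all genes were. By direction, 2 receptors rose and 2 fell at 4 h, beside 2.61% and 7.97% of all genes, and 2 rose and 1 fell at 24 h, beside 12.7% and 17.4%. Without the Th2 cultures the count at 4 h was 2 of 10. The share at 24 h against rest was close to that of the table at large. The first pair of comparisons share the 2 resting libraries. The median log2 difference of the receptors was -0.02 at 4 h and 0.55 at 24 h against rest, beside -0.04 at both times over all genes. With median-of-ratios scaling and with quantile normalization the median over all genes at 24 h was 0.10 and 0.11, of the opposite sign. At 24 h 1389 genes rose and 1891 fell as deposited, against 1725 and 1612 with median-of-ratios scaling and 1777 and 1612 with quantile normalization. At 4 h the counts were 284 and 868, 329 and 738, and 501 and 755 in the same order. The shares by direction given beside the gene lists below use the deposited values. In 3 of the 10 receptors, *Icos*, *Slamf1* and *Cd84*, the values of all 18 cultures lay on one side of both resting libraries, as they did in 31.8% of all genes. The names of the resting libraries carry a different number from those of the cultures, with no word on what it stands for, so any batch it marks and activation cannot be told apart. In these bulk samples fewer cells of a type and less RNA per cell cannot be told apart either.

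**Figure D1:**
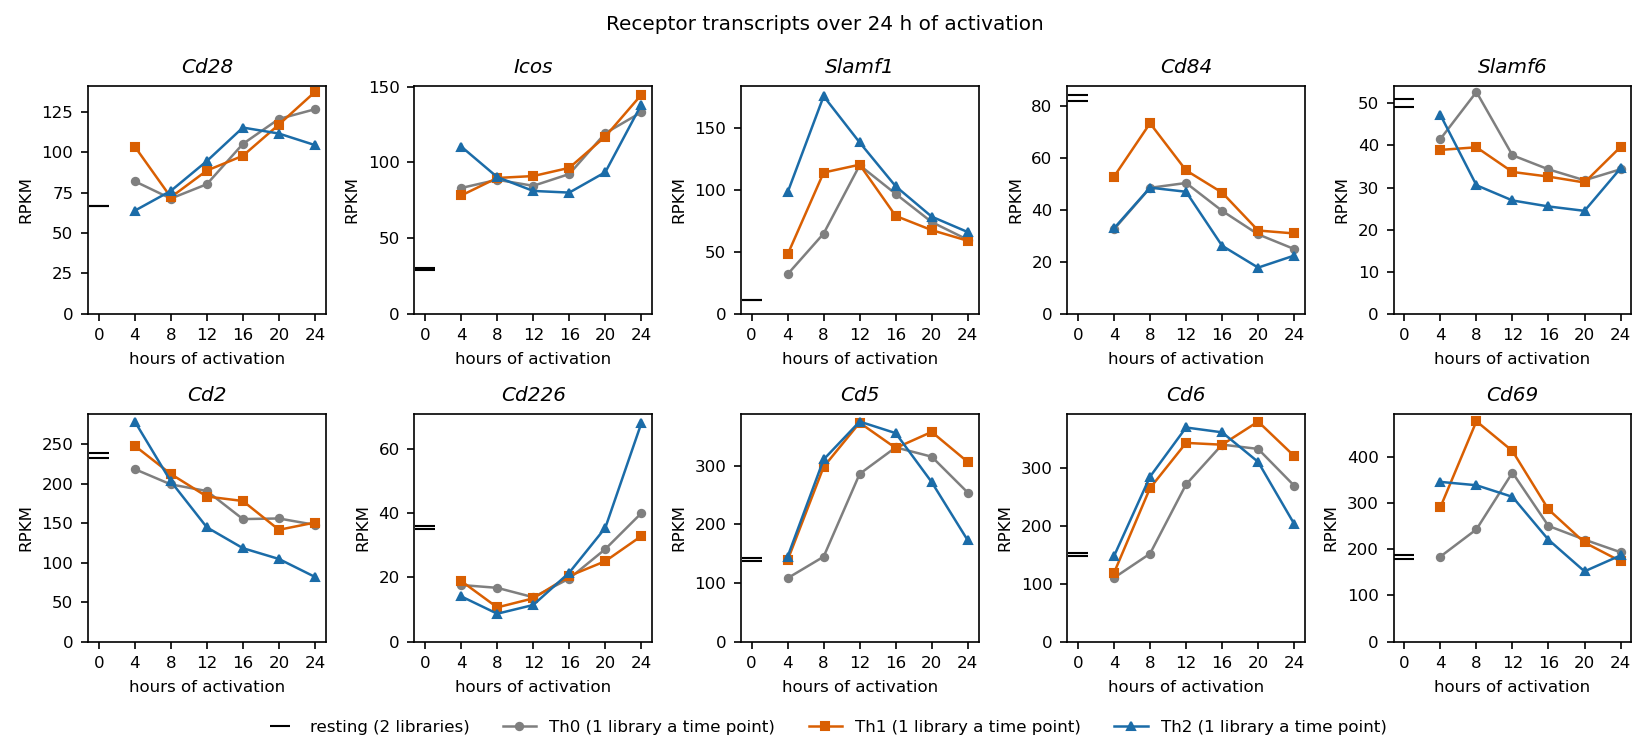
RPKM of the 10 receptors (vertical axes, each from 0) against hours of activation, with the 2 resting libraries as dashes at 0 h and 1 library a point for Th0, Th1 and Th2 cultures. *Icos* and *Slamf1* lie above both resting libraries in all 18 cultures and *Cd84* below both, while *Cd226* dips and returns.

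*Icos*, which encodes the inducible costimulator, stood at 30.2 and 28.9 RPKM at rest. It measured 83.1 RPKM in Th0, 78.1 in Th1 and 110 in Th2 at 4 h, and 133, 145 and 138 RPKM at 24 h. Over the 6 time points the median was 90.4 RPKM in Th0, 93.7 in Th1 and 91.9 in Th2, with lowest values of 83.1, 78.1 and 80.1. All 18 cultures were above both resting libraries, and the 3 conditions overlapped. The log2 difference from rest was 1.58 ± 0.14 (SE) at 4 h, with a limma adjusted p of 3.1e-07, and 2.21 ± 0.14 at 24 h, with a limma adjusted p of 9.18e-10. Between 4 and 24 h it rose by a further 0.63, under the 2-fold limit, with a limma adjusted p of 0.000317.

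*Cd28*, which encodes the receptor that the soluble antibody in these cultures engages, was level at rest with 66.5 and 66.7 RPKM. At 4 h it measured 82.0 RPKM in Th0, 104 in Th1 and 63.9 in Th2, and at 24 h 127, 137 and 104 RPKM. It lay above both resting libraries in 17 of 18 cultures, the exception being Th2 at 4 h. The log2 difference from rest was 0.29 ± 0.16 at 4 h and 0.87 ± 0.16 at 24 h, the second with a limma adjusted p of 0.000147 but under 2-fold. With median-of-ratios scaling the 24 h difference was 1.01 and past the threshold. *Cd28* and *Icos* lie on chromosome 1 with *Ctla4* between them, the 3 genes spanning 284 kb. Across the 20 libraries of the time course Pearson's r between *Cd28* and *Icos* was 0.61, and over the 18 cultures it was 0.48. Among the 10897 genes tested, ordered by likeness to *Cd28* and to *Icos*, the other of the pair ranked 1923 and 1442. *Ctla4*, which encodes the inhibitory receptor for the same ligands as CD28, stood at 62.8 and 56.7 RPKM at rest and at 86.4, 102 and 83.2 RPKM in Th0, Th1 and Th2 at 24 h. Its log2 difference at 24 h was 0.59, under the 2-fold limit, with a limma adjusted p of 0.0361.

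Of 18 genes listed for CD28 and ICOS signals inside the cell, all 18 were tested, and 0 rose and 2 fell past the threshold at 4 h by limma, against 0 and 4 at 24 h, where 2.61% and 7.97% of all genes rose and fell at 4 h and 12.7% and 17.4% at 24 h. *Pik3r1*, which encodes a regulatory subunit of PI3K, fell by 1.94 on the log2 scale at 24 h, and *Grap2*, which encodes the adapter GADS, by 1.84. *Pdk1*, which fell by 1.24 at 4 h and 1.90 at 24 h and is in both counts, encodes a pyruvate dehydrogenase kinase, an enzyme of metabolism that does not carry these signals. *Pdpk1*, which encodes the kinase of the PI3K pathway with the same short name, had -0.22 at 4 h and -0.61 at 24 h and was past the threshold at neither. The median log2 difference of all 18 was -0.49 at 24 h, beside -0.04 over all genes. Among 10 genes listed for ligands of the receptors 7 were tested, and at 4 h 2 rose and 3 fell (2.61% and 7.97% of all genes). *Cd274*, which encodes PD-L1, a binding partner of CD80, had a log2 difference of 2.79 at 4 h and 1.54 at 24 h. It is in the count of genes that rose, though PD-L1 is not a ligand of any of the receptors described here. *Cd86*, a ligand of CD28, had -1.29 and -2.73, and *Icosl*, the ligand of ICOS, -0.15 and -1.95. *Cd80* reached at most 1.34 RPKM in the 18 cultures and was too low to be tested.

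*Cd226* encodes the activating receptor DNAM-1. It stood at 36.1 and 35.2 RPKM at rest and at 17.6, 18.9 and 14.1 RPKM in Th0, Th1 and Th2 at 4 h. Its lowest value was 13.8 RPKM in Th0 at 12 h, 10.7 in Th1 at 8 h and 8.69 in Th2 at 8 h. By 24 h it had come back to 40.0 RPKM in Th0, 32.9 in Th1 and 68.1 in Th2. All cultures from 4 to 16 h lay below both resting libraries, and at 24 h Th0 and Th2 lay above both and Th1 below both. The log2 difference from rest was -1.07 ± 0.26 at 4 h, with a limma adjusted p of 0.00525, and 0.33 ± 0.26 at 24 h, with a limma adjusted p of 0.285. From 4 to 24 h it rose by 1.39 ± 0.24, with a limma adjusted p of 8.04e-05. The 4 h difference slipped under 2-fold with median-of-ratios scaling, at -0.99, and without the Th2 cultures, at -0.95. Without the Th2 cultures the difference between 24 and 4 h was 0.97, also under 2-fold. *Cd226* and *Cd69* ran opposite ways across the 20 libraries of the time course, with Pearson's r of -0.82. This was the lowest r of all pairs of the 10 receptors. Among the 10897 genes tested the pair ranked 10824 and 10825 in likeness to each other, so other genes ran further opposite to each.

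CD226 shares its ligands with the inhibitory receptors TIGIT and CD96. *Tigit* stood at 12.9 and 11.7 RPKM at rest and at 51.1, 36.1 and 46.0 RPKM in Th0, Th1 and Th2 at 4 h, then at 13.1, 10.1 and 16.5 at 24 h. *Cd96* went from 69.8 and 67.0 RPKM at rest to 28.5, 25.5 and 31.9 at 4 h and 13.7, 11.9 and 18.4 at 24 h. So *Tigit* was above both resting libraries at 4 h, where *Cd226* was below both, while *Cd96* was below both resting libraries at both times. In limma the log2 difference at 4 h was 1.80 for *Tigit* and -1.25 for *Cd96*, both past the threshold. *Pvr*, which encodes a shared ligand, had 0.21 at 4 h and -0.19 at 24 h and was past it at neither. Of 8 genes for rival and inhibitory receptors, all tested, 2 rose and 3 fell at 4 h (2.61% and 7.97% of all genes), and 3 rose and 2 fell at 24 h (12.7% and 17.4%). *Pdcd1* had a log2 difference of 2.49 at 4 h and 2.42 at 24 h, *Lag3* -1.06 and then 2.50.

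The SLAM receptors *Slamf1*, *Cd84* and *Slamf6* are neighbours on chromosome 1, all on the plus strand, at chr1:171767127-171801184, chr1:171839697-171890718 and chr1:171917515-171953170 in GRCm38. The 3 genes span 186 kb, and with *Cd244a*, *Ly9*, *Slamf7* and *Cd48* the 7 genes span 394 kb. Their promoters are printed because these neighbours went opposite ways after activation. RefSeq promoters (GRCm38.p6) matched 4 of the 10 receptors, *Slamf1*, *Cd84*, *Slamf6* and *Cd5*. *Cd28*, *Icos*, *Cd226*, *Cd2*, *Cd6* and *Cd69* had no entry. Each line gives the 250 bases before the start of the RefSeq transcript, from chr1:171766882-171767131, chr1:171839447-171839696 and chr1:171917212-171917461, plus strand, 5′ to 3′, and capitals mark the motifs found.
Slamf1: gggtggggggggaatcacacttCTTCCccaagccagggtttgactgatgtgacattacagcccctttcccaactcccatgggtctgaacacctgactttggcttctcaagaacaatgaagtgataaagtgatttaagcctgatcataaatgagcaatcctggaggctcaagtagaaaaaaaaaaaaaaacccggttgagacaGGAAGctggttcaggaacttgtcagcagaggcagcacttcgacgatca
Cd84: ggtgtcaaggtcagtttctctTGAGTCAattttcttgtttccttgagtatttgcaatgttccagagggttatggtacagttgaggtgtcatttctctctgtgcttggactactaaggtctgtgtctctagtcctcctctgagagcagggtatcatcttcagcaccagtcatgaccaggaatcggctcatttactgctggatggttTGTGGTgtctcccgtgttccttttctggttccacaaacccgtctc
Slamf6: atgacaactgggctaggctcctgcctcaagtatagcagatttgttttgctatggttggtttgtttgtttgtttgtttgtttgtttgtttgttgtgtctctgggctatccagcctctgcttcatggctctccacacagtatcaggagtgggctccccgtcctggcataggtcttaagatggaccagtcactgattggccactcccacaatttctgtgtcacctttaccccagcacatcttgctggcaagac
The motifs searched, on both strands, were AP-1 (TGANTCA, in 6.75% of 32851 promoters), GAS (TTCNNNGAA, 7.02%), Runx (TGTGGT, 4614 of the 32851), NFAT (GGAAAA, 20.4%) and ETS (GGAAG, 64.1%). The *Cd84* window held 1 AP-1 match at -229 to -223 and 1 Runx match at -45 to -40, the *Slamf1* window 2 ETS matches, and the *Slamf6* window held none of the 5. These are matches of letters and not sites of binding.

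*Slamf1*, which encodes SLAM itself, had the largest change from rest of the 10 receptors. It stood at 11.27 and 11.01 RPKM at rest and at 32.0, 48.0 and 98.2 RPKM in Th0, Th1 and Th2 at 4 h. It was highest at 12 h in Th0 and Th1, with 120 and 121 RPKM, and at 8 h in Th2, with 176 RPKM. By 24 h it measured 59.9, 59.1 and 66.2 RPKM. Over the 6 time points the lowest, median and highest values were 32.0, 69.6 and 120 RPKM in Th0, 48.0, 73.5 and 121 in Th1, and 66.2, 100.7 and 176 in Th2. All 18 cultures lay above both resting libraries, and Th2 was the highest condition at 6 of 6 time points. The log2 difference from rest was 2.21 ± 0.36 at 4 h, with a limma adjusted p of 0.000196, and 2.42 ± 0.36 at 24 h, with a limma adjusted p of 2.45e-05. With time point in the model, Th2 exceeded Th0 by 0.59 ± 0.18, under 2-fold, with a limma adjusted p of 0.0218. Against Th1 the difference was 0.43 ± 0.18 with a limma adjusted p of 0.137. The gap between Th2 and Th0 lay mostly at 4 and 8 h, with 64.9 RPKM in Th0 and 176 in Th2 at 8 h. Later Th0 and Th2 were closer, with 120 and 139 RPKM at 12 h, 97.0 and 103 at 16 h and 74.2 and 78.6 at 20 h. Th2 cultures also had the highest sum of activation transcripts at 4, 8 and 12 h. Of the genes summed, *Il2* was higher in Th1 than in Th2 at 8 h, with 56.9 and 53.8 RPKM. *Nr4a1* measured 345, 451 and 875 RPKM in Th0, Th1 and Th2 at 4 h, and *Myc* 52.2, 73.1 and 157 RPKM. The sum of the 5 activation genes *Il2*, *Nr4a1*, *Egr1*, *Myc* and *Tnfrsf4* was 220 and 230 RPKM at rest. *Nr4a1* was the most abundant of them at rest and on average in the cultures. The sum in Th0, Th1 and Th2 was 579, 739 and 1412 at 4 h and 569, 1090 and 1443 at 8 h. At 12 h it was 1128, 1088 and 1169, and at 16 h 1160, 969 and 1066. At 20 h it was 1141, 1031 and 1026 RPKM and at 24 h 922, 1009 and 891, with Th2 the lowest condition where *Slamf1* was still highest in Th2. The part of these genes in the *Slamf1* difference was not tested.

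*Cd84* ran the other way. It stood at 84.2 and 81.6 RPKM at rest and at 32.5, 52.7 and 32.9 RPKM in Th0, Th1 and Th2 at 4 h. It then climbed to 50.3 RPKM in Th0 at 12 h, 73.2 in Th1 at 8 h and 48.5 in Th2 at 8 h, and came down to 24.9, 30.9 and 22.4 RPKM at 24 h. Over the 6 time points the lowest, median and highest values were 24.9, 36.0 and 50.3 RPKM in Th0, 30.9, 49.7 and 73.2 in Th1, and 17.8, 29.5 and 48.5 in Th2. All 18 cultures lay below both resting libraries, and the 3 conditions overlapped. Th1 was the highest condition at 6 of 6 time points and Th2 the lowest at 4. The log2 difference from rest was -1.10 ± 0.28 at 4 h, with a limma adjusted p of 0.00625, and -1.66 ± 0.28 at 24 h, with a limma adjusted p of 7.72e-05. The call at 4 h ended without the Th0 cultures (-0.99), without the Th2 cultures (-0.99) and without resting replicate 1 (-1.08), where the limma adjusted p over all alternatives ran from 0.00285 to 0.0545. Th2 was lower than Th1 at 6 of 6 time points, by -0.60 ± 0.10, under 2-fold, with a limma adjusted p of 0.000849.

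*Slamf6*, which encodes Ly108, changed less. It stood at 49.2 and 51.1 RPKM at rest, at 41.5, 38.9 and 47.2 RPKM in Th0, Th1 and Th2 at 4 h and at 34.3, 39.6 and 34.5 RPKM at 24 h. Over the 6 time points its lowest, median and highest values were 31.7, 36.0 and 52.7 RPKM in Th0, 31.2, 36.3 and 39.6 in Th1, and 24.5, 28.7 and 47.2 in Th2. It lay below both resting libraries in 17 of 18 cultures, the exception being Th0 at 8 h. The log2 difference from rest was -0.24 ± 0.20 at 4 h and -0.47 ± 0.20 at 24 h, the second with a limma adjusted p of 0.0462 and under 2-fold. Th2 was below Th0 by -0.31 ± 0.10 over the time course, with a limma adjusted p of 0.0345, and at 4 of 6 time points. Against Th1 the difference was -0.22 ± 0.10 with a limma adjusted p of 0.202, short of the threshold.

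Of 10 SLAM relatives and adapters 5 were tested, and 1 rose and 2 fell at 4 h, beside 2.61% and 7.97% of all genes. *Slamf7* went from 11.2 and 10.8 RPKM at rest to 18.9, 34.3 and 38.9 RPKM in Th0, Th1 and Th2 at 4 h, and its log2 difference was 1.38. *Cd48*, whose product is the ligand of CD2, went from 115 and 114 RPKM to 44.9, 47.1 and 53.5 RPKM, with -1.24. *Ly9* went from 81.8 and 79.7 RPKM to 40.0, 39.8 and 40.4 RPKM. It fell past the threshold, but by little more than 2-fold. At 24 h limma called 0 of the 5 past the threshold, beside 30.1% of all genes. *Ly9*, *Slamf7* and *Cd48* kept a limma adjusted p under 0.05, with log2 differences of -0.58, 0.92 and -0.85, and 65.2% of all genes did so at 24 h. *Sh2d1a*, which encodes SAP, measured 49.6 and 46.4 RPKM at rest and from 21.5 to 86.0 RPKM in the cultures.

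**Figure D2:**
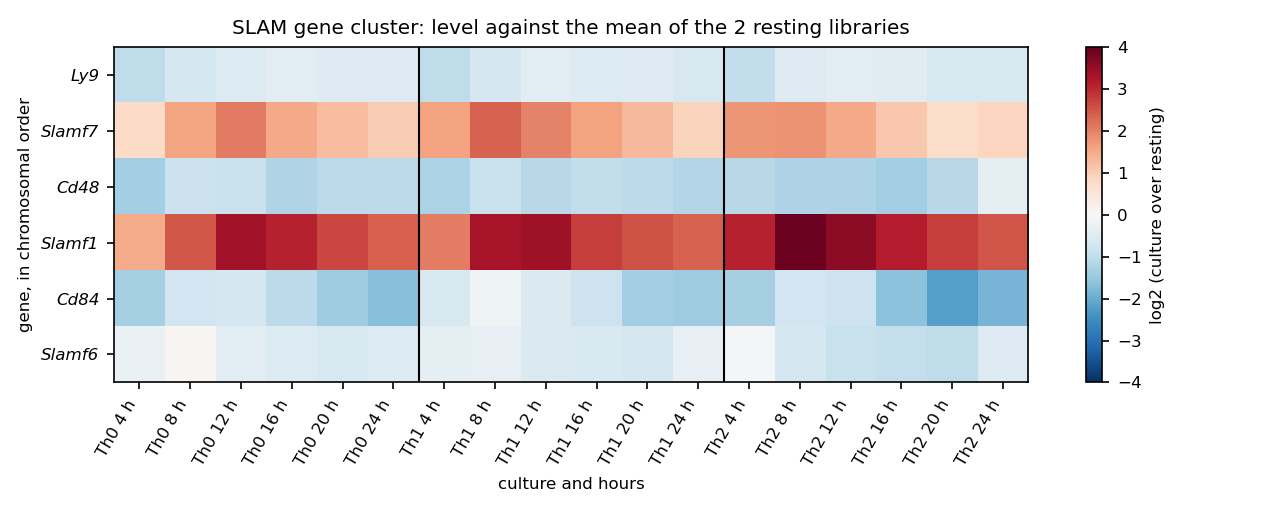
Log2 ratio of each culture to the mean of the 2 resting libraries (colour) for 6 genes of the SLAM cluster in chromosomal order, by condition and hour (1 library a cell). *Slamf1* and *Slamf7* are above rest in all 18 cultures and *Cd84*, *Cd48* and *Ly9* below it, and *Slamf6* is below both resting libraries in 17 of 18.

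*Cd2* stood at 232 and 239 RPKM at rest and at 219, 248 and 279 RPKM in Th0, Th1 and Th2 at 4 h. By 24 h it measured 148, 151 and 82.0 RPKM. From 8 h on all cultures lay below both resting libraries, and Th2 was the lowest condition at 4 of 6 time points, from 12 h on. The log2 difference was 0.07 ± 0.24 at 4 h and -0.94 ± 0.24 at 24 h against rest, the second with a limma adjusted p of 0.00226. From 4 to 24 h it was -1.01 ± 0.21, past the threshold with a limma adjusted p of 0.000515. Without the Th2 cultures that change was -0.64, and with median-of-ratios scaling -0.95. The 24 h difference from rest crossed the 2-fold limit with quantile normalization (-1.15), without the Th0 cultures (-1.08) and without the Th1 cultures (-1.09). *Cd2* also had the steepest difference in slope with time between Th2 and Th1 relative to its error, -0.05 ± 0.01 on the log2 scale per hour, with a limma adjusted p of 0.107 that missed the threshold.

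*Cd5* and *Cd6* lie 50.3 kb apart on the minus strand of chromosome 19, at chr19:10717116-10739002 and chr19:10789341-10830058, and both encode scavenger receptors that restrain signalling. *Cd5* stood at 137 and 142 RPKM at rest and *Cd6* at 147 and 152 RPKM. At 4 h *Cd5* measured 108, 139 and 145 RPKM in Th0, Th1 and Th2 and *Cd6* 110, 118 and 147. *Cd5* was highest at 331 RPKM in Th0 at 16 h, 373 in Th1 at 12 h and 375 in Th2 at 12 h. *Cd6* was highest at 340 RPKM in Th0 at 16 h, 379 in Th1 at 20 h and 369 in Th2 at 12 h. At 8 h *Cd5* was 145 RPKM in Th0 but 298 and 310 in Th1 and Th2, so Th0 was just above rest when the other conditions were at more than 2 times its level. At 24 h *Cd5* measured 254, 306 and 173 RPKM and *Cd6* 269, 320 and 203, with Th2 the lowest of the 3 conditions for both.

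In limma *Cd5* and *Cd6* had log2 differences of 0.77 ± 0.27 and 0.79 ± 0.23 at 24 h against rest, with adjusted p of 0.0212 and 0.00648, both under 2-fold. At 24 h against 4 h *Cd6* was past the threshold at 1.06 ± 0.21, with a limma adjusted p of 0.000292, and *Cd5* was not, at 0.87 ± 0.25. The pair sat on either side of the 2-fold limit, and the limit decided the calls. Without the Th2 cultures *Cd5* was at 1.18 and past the threshold, and *Cd6* was under 2-fold with quantile normalization (0.86), without the Th0 cultures (0.95) and without the Th1 cultures (0.87). Of the 10897 genes tested *Cd6* was the most like *Cd5* across the 20 libraries of the time course and *Cd5* the most like *Cd6*, with Pearson's r of 0.98, and over the 18 cultures r was 0.98 as well. The ratio of *Cd5* to *Cd6* ran from 0.850 to 1.17 with a median of 0.973. In the 4 libraries of the actinomycin series it ran from 0.646 to 0.743, below all 20 of the others. The 0.743 is that of the 0 h library, so the lower ratio was there before any time in the drug, and the names of these 4 libraries do not carry the number of the cultures.

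**Figure D3:**
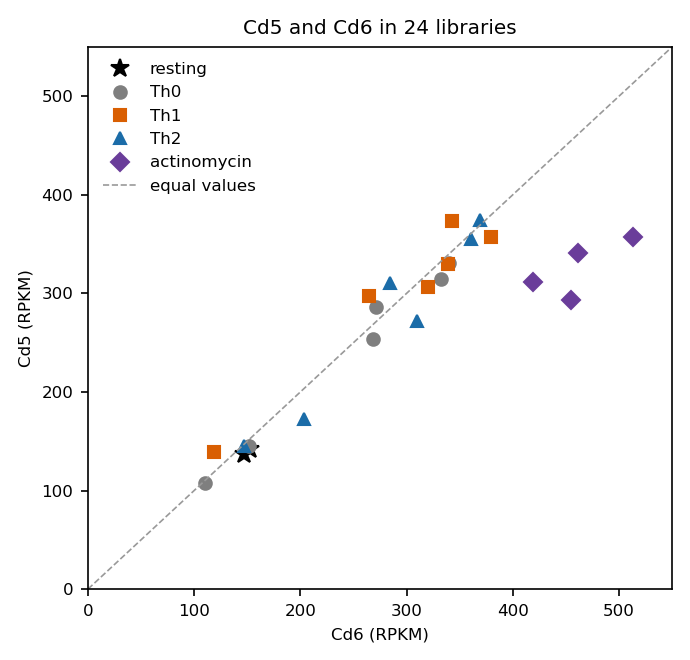
RPKM of *Cd5* (vertical axis) against *Cd6* (horizontal axis) in the 24 libraries, 1 point a library, with a dashed line where the values are equal. The 20 libraries of the time course follow the line, and the 4 libraries of the actinomycin series lie below it at ratios of 0.646 to 0.743, the 0 h library included.

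Of 11 genes whose products bind the tails of CD2, CD5 or CD6, all tested, 1 rose and 2 fell at 4 h and 1 rose and 2 fell at 24 h, beside 2.61% and 7.97% of all genes at 4 h and 12.7% and 17.4% at 24 h. *Cblb*, which encodes a ubiquitin ligase that restrains CD28-independent activation, had a log2 difference of 1.76 at 4 h. *Pstpip1*, whose product binds the tail of CD2, had -1.77 at 4 h and -1.82 at 24 h, and *Ptpn6*, which encodes the phosphatase SHP-1, had -1.28 at 4 h. *Alcam* encodes the ligand of CD6. It measured 4.32 and 4.23 RPKM at rest, 10.5, 13.9 and 13.8 RPKM in Th0, Th1 and Th2 at 4 h and 19.3, 20.0 and 22.5 RPKM at 24 h, and its log2 difference was 1.46 and then 2.14. *Cd72*, a reported ligand of CD5, measured 24.9 and 21.9 RPKM at rest and 6.40, 5.89 and 5.07 RPKM at 24 h, with a log2 difference of -1.93. All 7 tested marker genes of B cells fell past the threshold at 24 h too, with a median of -2.14. The part of B cells in the fall of *Cd72* was not tested.

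*Cd69* was already high at rest, with 187 and 179 RPKM. At 4 h it measured 184 RPKM in Th0, 291 in Th1 and 346 in Th2. It was highest at 12 h in Th0 with 366 RPKM, at 8 h in Th1 with 477 and at 4 h in Th2 with 346. At 24 h it measured 194, 174 and 187 RPKM, on both sides of the resting values. The log2 difference was 0.53 ± 0.26 at 4 h, with a limma adjusted p of 0.131, and 0.01 ± 0.26 at 24 h, with a limma adjusted p of 0.969, both short of the threshold. At 8 and 12 h all 6 cultures were above both resting libraries, and these hours were not compared with rest by a test. The earlier peak in Th2 than in Th0 was beside the activation genes given with *Slamf1*, and their part in it was not tested. *S1pr1*, whose product CD69 holds inside the cell, stood at 132 and 135 RPKM at rest, at 126, 157 and 123 RPKM in Th0, Th1 and Th2 at 4 h and at 17.0, 11.2 and 8.94 RPKM at 24 h. *Klf2*, which encodes the factor that drives *S1pr1*, went from 158 and 185 RPKM to 209, 144 and 124 and then to 24.9, 16.3 and 9.67 RPKM. Their log2 differences at 24 h were -3.43 and -3.39 in limma. Both were lower in Th2 than in Th0 over the time course, by -1.19 and -1.31, past the threshold. Of 10 genes that bind, neighbour or are regulated with CD69, all tested, 1 rose and 1 fell at 4 h (2.61% and 7.97% of all genes) and 2 rose and 5 fell at 24 h (12.7% and 17.4%).

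**Figure D4:**
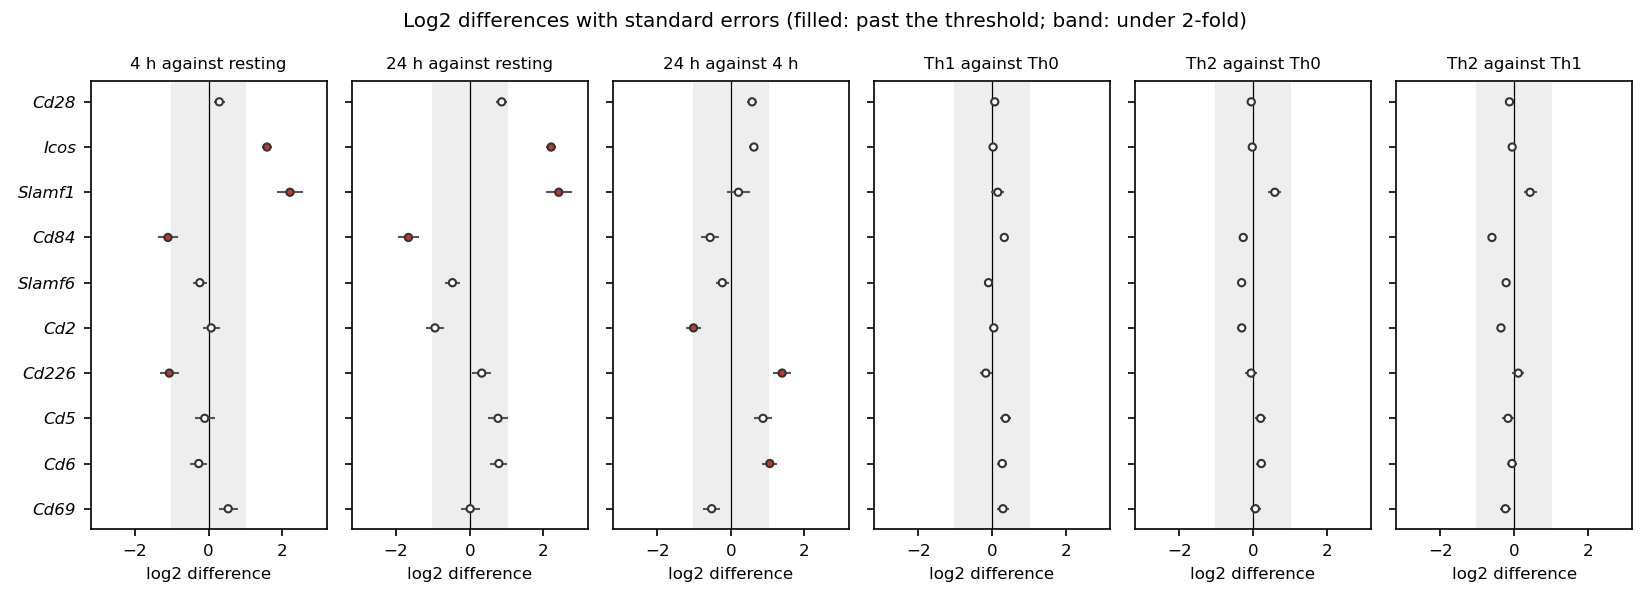
Log2 differences of the 10 receptors (horizontal axes) in 6 limma comparisons, with standard errors as bars and filled points past the threshold, and the band under 2-fold shaded. Filled points appear in the 3 time comparisons, 4, 3 and 3 of 10, and in 0 of the 3 comparisons between conditions.

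The other receptors overlapped widely between conditions. *Cd28* had a median of 93.6 RPKM in Th0 (71.4 to 127), 100.7 in Th1 (72.2 to 137) and 99.5 in Th2 (63.9 to 115). *Cd226* had 18.7 (13.8 to 40.0), 19.7 (10.7 to 32.9) and 17.8 RPKM (8.69 to 68.1), the widest range being in Th2. *Cd2* had 173 (148 to 219), 181 (142 to 248) and 132 RPKM (82.0 to 279), with Th2 at both ends. *Cd5* had 270 (108 to 331), 318 (139 to 373) and 291 RPKM (145 to 375), and *Cd6* 270 (110 to 340), 330 (118 to 379) and 297 RPKM (147 to 369), with the highest median in Th1 for both. *Cd69* had 232 (184 to 366), 289 (174 to 477) and 267 RPKM (152 to 346).

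Between conditions, with time point as a factor, limma put 0 of the 10 receptors past the threshold in Th1 against Th0 (0.494% of all genes), 0 in Th2 against Th0 (2.01%) and 0 in Th2 against Th1 (1.96%). At an unadjusted p under 0.05 the counts were 3, 4 and 3 of 10, beside 16.4%, 41.2% and 25.3% of all genes. Each condition was sequenced once at each time point, so these tests compare series of cultures and not biological replicates. With no fold limit 2 receptors passed an adjusted p of 0.05 in Th2 against Th0, *Slamf1* and *Slamf6*, where 29.6% of all genes did, and 1 in Th2 against Th1, *Cd84*, where 12.2% did. The slope with time differed between Th2 and Th1 for 0 of 10 receptors by limma (0.177% of all genes), and for 1 of 10 at an unadjusted p under 0.05, beside 7.14% of all genes. Marker genes of the skewed conditions were read beside the labels. *Ifng* had a lowest value of 206 and a median of 421 RPKM in Th1 and a lowest of 60.5 and a median of 68.8 in Th2, and *Gata3* ran from 18.8 to 34.4 RPKM in Th2 and from 7.21 to 10.97 in Th1, without overlap in either gene. *Il4* did overlap, with 12.7 to 27.9 RPKM in Th1 and 6.97 to 47.4 in Th2. *Cxcr3*, also listed for Th1, overlapped too, with 6.96 to 19.4 RPKM in Th1 and 3.84 to 17.2 in Th2. It was below both resting libraries in all 18 cultures. *Tbx21*, the last gene listed for Th1, lay above both in 6 of 6 Th0, 6 of 6 Th1 and 2 of 6 Th2 cultures. Th0 overlapped Th2 in *Ifng* (14.9 to 94.5 RPKM) and in *Gata3* (11.2 to 30.6). In Th2 against Th0 limma put 0 of the 2 genes listed for Th2 past the threshold.

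After actinomycin the receptors separated. *Cd69* went from 178 RPKM at 0 h to 132, 62.1 and 42.2 RPKM at 1, 2 and 4 h. *Slamf1* went from 76.4 to 68.5, 47.4 and 29.8 RPKM. Both were lower at each later time, and the 4 h value was 0.237 of the 0 h value for *Cd69* (0.223 to 0.252, counting error only) and 0.390 for *Slamf1*. Their slopes were -0.54 and -0.35 on the log2 scale per hour, where the quartiles of all 10571 genes were -0.10, 0.00 and 0.10, and 0.236% and 2.26% of genes had a lower slope. The exact permutation p over the 24 orders of the 4 libraries, two-sided, was 0.0417 for both, which is the smallest these orders can give, and 14.3% of all genes reached it. With 1 library a time point there are no replicates. Because RPKM is relative to the RNA that remains, a level that holds does not mean that no RNA was lost.

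*Cd226* had a slope of -0.13 and was the last of 3 receptors below the lower quartile, where 25.0% of all genes lie by construction. Its values were 16.2, 13.3, 16.0 and 10.7 RPKM, and without the 4 h library its slope was -0.01. *Icos* (-0.06) and *Cd84* (-0.06) turned to 0.08 and 0.06 without the 4 h library, so their direction rests on it. *Cd28* had -0.09, and *Cd2* had -0.01, which turned to 0.01 without the 1 h library. *Cd5*, *Cd6* and *Slamf6* had slopes above 0, with 0.04, 0.07 and 0.11, and at 4 h stood at 1.15 (1.12 to 1.17), 1.22 and 1.24 (1.16 to 1.33) of the 0 h value, the first and last with counting intervals. Without the 4 h library the slope of *Cd5* turned to -0.04, so its direction rests on that library too. *Icos* and *Slamf1*, the receptors highest above rest at 24 h, thus had slopes of -0.06 and -0.35. Proteins that destabilise cytokine and receptor transcripts are encoded by 7 listed genes, all tested, of which 1 rose and 2 fell at 4 h (2.61% and 7.97% of all genes) and 1 rose and 2 fell at 24 h (12.7% and 17.4%). *Zfp36* measured 300 and 324 RPKM at rest, 96.1, 89.5 and 99.6 RPKM in Th0, Th1 and Th2 at 4 h and 32.0, 31.8 and 24.3 RPKM at 24 h. *Zfp36l2* had a log2 difference of -1.35 at 4 h and -2.30 at 24 h, and *Zc3h12d* 1.31 and 1.92.

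**Figure D5:**
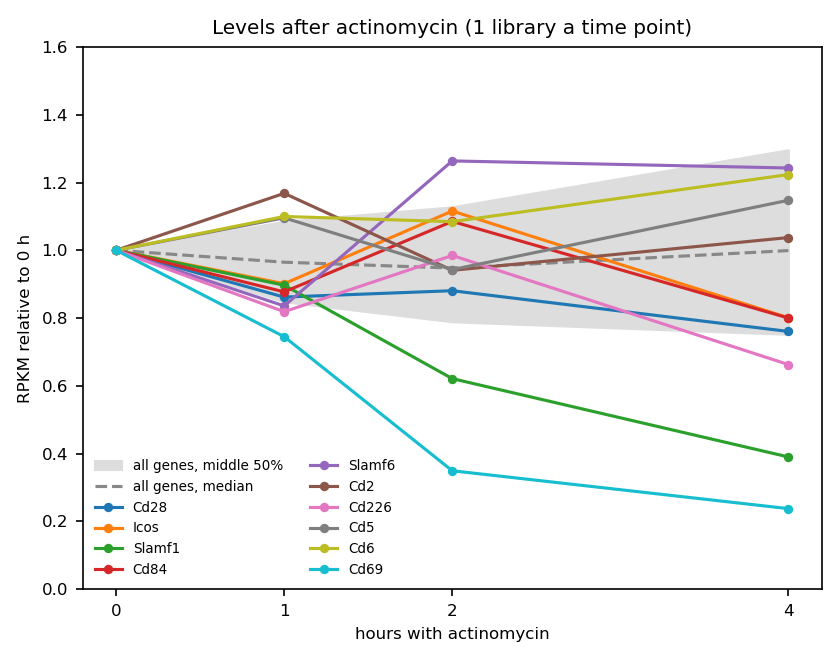
RPKM relative to 0 h (vertical axis) against hours with actinomycin for the 10 receptors, 1 library a time point, with the middle 50% and the median of all genes in grey. *Cd69* and *Slamf1* fall to 0.237 and 0.390 of their 0 h values, and the other 8 end between 0.663 and 1.24.

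Markers of other cells moved with activation, where 7.97% of all genes fell at 4 h and 17.4% at 24 h. The 9 listed genes of monocytes and macrophages summed to 816 and 835 RPKM at rest and to between 17.1 and 113 RPKM in the 18 cultures, with *Hmox1* the most abundant, and 8 of 9 fell past the threshold at 4 h and 9 of 9 at 24 h. The 8 genes of B cells summed to 73.1 and 83.9 RPKM at rest and 10.3 to 60.1 RPKM in the cultures, with *Cd79b* the most abundant, and 2 of 7 tested fell at 4 h and 7 of 7 at 24 h. The 7 genes of red cells in the table summed to 38837 and 42382 RPKM at rest, 29387 to 47109 at 4 h and 142 to 212 at 24 h, with *Hbb-bs* the most abundant, and 1 of 7 fell at 4 h and 7 of 7 at 24 h. The 6 genes of NK cells summed to 127 and 129 RPKM at rest, 84.2 to 191 at 4 h and 46.3 to 65.1 at 24 h, with *Gzma* the most abundant, and 1 of 6 fell at 4 h, *Klrb1c*, and 4 fell and 1 rose at 24 h. The 5 genes of platelets summed to 31.2 and 34.2 RPKM at rest, 24.2 to 40.0 at 4 h and 2.66 to 3.96 at 24 h, with *Ppbp* the most abundant at rest, and 0 of 4 tested passed the threshold at 4 h and 4 of 4 fell at 24 h. The 5 of dendritic cells summed to 10.8 and 12.7 RPKM at rest and 3.23 to 10.1 in the cultures, with *Itgax* the most abundant at rest, and 0 of 3 tested passed at 4 h and 2 of 3 fell at 24 h. The 2 of CD8 T cells summed to 12.4 and 12.7 RPKM at rest and 6.59 to 15.7 in the cultures, with *Cd8b1* the most abundant, and 0 of 2 passed at either time. No listed marker was at 0 in both resting libraries, in all 6 cultures of a condition or in all 4 actinomycin libraries. None was at 0 in all 3 cultures at 4 h or at 24 h either. Single libraries did hold 0 values, as for *C1qa* in Th2 at 16 h and *Gp9* in Th1 at 24 h. *Cd84* and *Cd86*, which fell from rest, are also made by B cells and myeloid cells, and the part of these cells in the results was not tested. Nor was it tested for the ligand genes *Cd72* and *Icosl*, which were also lower at 24 h than at rest.

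Across the 20 libraries of the time course the genes most like each receptor, by Pearson's r on log2 values over 10897 genes, were *Tnfrsf9* (0.98) and *Orai1* (0.97) for *Slamf1*, *Il10ra* (0.96) and *Isg15* (0.96) for *Cd2*, and *Zfp808* (0.95) and *Wdr76* (0.95) for *Cd226*. For *Cd84* they were *Rap2b* (0.93) and *Maf* (0.90), for *Cd28* *Khdrbs1* (0.93) and *Ccr7* (0.93), for *Cd69* *Arpc5* (0.93) and *Fam208b* (0.90), for *Icos* *Tnfrsf18* (0.92) and *Ppme1* (0.90), and for *Slamf6* *Ngly1* (0.91) and *St8sia4* (0.91). After each other, *Cd5* was most like *Mtrr* (0.97) and *Cd6* most like *Adat3* (0.98). The libraries share their activation course, so these values describe like time courses only. *Tnfrsf9*, which encodes the costimulatory receptor 4-1BB, measured 19.4 and 18.02 RPKM at rest and was highest at 309 RPKM in Th0 at 12 h, 302 in Th1 at 12 h and 514 in Th2 at 8 h, the same hours at which *Slamf1* was highest. It was picked for its r with *Slamf1* in these libraries, so the shared hours are not a separate observation.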

How the data were processed

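The authors mapped RNA-seq reads of 24 libraries with BWA to GRCm38 and deposited RPKM per gene, which were used as deposited. Mapped reads were recovered from the step between RPKM values (tolerance 0.02 reads, 79 genes). limma 3.58.1 in R 4.3.3 was fitted with a mean-variance trend to log2(RPKM + 0.5) where a gene averaged 1 RPKM or more over the libraries of the fit, with Benjamini-Hochberg adjustment over all genes tested. Time points were compared over 20 libraries and conditions over 18 cultures with time point as a factor. Actinomycin slopes used log2(RPKM + 0.1) and an exact permutation of 24 orders. The members and lists were chosen with earlier results of these data known. All 10 members were named, and up to 4 genes a list and comparison, the largest past the threshold, besides genes needed to say what a member binds. The written design held that this permutation could not reach p under 0.05. Uneven hours let it reach 0.0417. The shares of all genes that reach it, that pass an unadjusted p, and that have all 18 cultures on one side of rest or conditions on opposite sides, were added after the values were seen. Conditions on opposite sides of rest were counted by time point (14 values) and, after those were seen, over whole series (0 receptors), and the first reading is reported. Python 3.11.15, numpy 2.4.6, pandas 2.3.3 and scipy 1.17.1 were used. Alternatives were other pseudocounts, filters, scalings and model settings, and leaving out libraries. Gene positions are from GENCODE M21 and promoters from RefSeq GRCm38.p6.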

Additional observations from a re-analysis of the deposited data

Results flagged for a closer look

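At the same time point 1 condition lay above both resting libraries and another below both for 6 of the 10 receptors, as for 49.0% of all genes tested. The values are log2 differences from the resting mean. Each rests on 1 library a condition and the difference was not tested. *Cd226* at 24 h was at 0.93 in Th2 and -0.11 in Th1. *Cd28* at 4 h was at 0.63 in Th1 and -0.06 in Th2. *Slamf6* at 8 h was at 0.07 in Th0 and -0.71 in Th2. *Cd2* at 4 h was at 0.24 in Th2 and -0.11 in Th0, and *Cd5* at 4 h at 0.05 in Th2 and -0.37 in Th0. *Cd69* was at 0.27 in Th0 and -0.27 in Th2 at 20 h, and at 0.08 in Th0 and -0.07 in Th1 at 24 h. Several of these values are close to 0. Read over all 6 time points of a condition instead of 1 at a time, 0 receptors had 1 condition wholly above rest and another wholly below it.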

How the results depend on the processing

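Over 70 log2 differences of the 10 receptors, 934 of 980 alternatives kept the direction and the side of the threshold, 11 lost the call, 5 gained it and 30 changed sign. Main values of those that changed sign were at most 0.21 in size, and 0 of them were past the threshold under either setting. The cause was not tested for any change given here.

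The receptors past the threshold at 4 h numbered 2 to 4 with libraries left out. Without 1 resting library the fit takes the spread of the remaining one from the other groups. Over the whole table, 646 genes were past it at 4 h with a mean of at least 5 RPKM, where fewer genes are tested. Without the time point factor 19 genes were past it in Th1 against Th0, 79 in Th2 against Th0 and 103 in Th2 against Th1. For the slope, 11 genes were with quantile normalization and 2 to 9 with a time point left out. The order of the conditions moved in 7 of 60 cases with median-of-ratios scaling and 8 of 60 with quantile normalization.

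The 30 sign changes fall on these log2 differences, given as the values of the alternatives. Against rest at 4 h they were *Cd2* -0.0163 to 0.159 with libraries left out, *Cd5* -0.186 to 0.0237 with libraries left out. Against rest at 24 h it was *Cd69* -0.0215 to 0.0547 with libraries left out and -0.259 with quantile normalization. At 24 h against 4 h it was *Slamf1* -0.135 to 0.595 with libraries left out. In Th1 against Th0 it was *Slamf1* -0.109 over 12 to 24 h. In Th2 against Th0 they were *Cd28* -0.105 to 0.0143 with libraries left out, *Icos* -0.106 to 0.0456 with libraries left out and 0.0234 with median-of-ratios scaling, *Cd226* -0.214 to 0.120 with libraries left out and 0.228 over 12 to 24 h, *Cd5* -0.0690 over 12 to 24 h, *Cd69* -0.103 to 0.185 with libraries left out and -0.249 over 12 to 24 h. In Th2 against Th1 they were *Icos* -0.162 to 0.00179 with libraries left out, *Cd226* -0.0715 to 0.218 with libraries left out, *Cd6* -0.130 to 0.0642 with libraries left out. For the difference in slope per hour between Th2 and Th1 they were *Cd28* -0.0275 to 0.0351 with libraries left out, *Cd84* -0.0137 to 0.00509 with libraries left out and 0.000182 with median-of-ratios scaling and 0.00736 with quantile normalization, *Slamf6* -0.0305 to 0.00796 with libraries left out, *Cd69* -0.0342 to 0.0272 with libraries left out.

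Depth limits 3 receptors by at most 2.95% counting error a library (*Slamf6*, *Cd5*, *Cd69*). For the other 7 it is unknown, as no whole reads were recovered.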
